A study of Homo sapiens with 72 samples.

Results

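The 46 genes described here encode the cyclins, cyclin-dependent kinases (CDKs), CDK inhibitors, pocket proteins, E2F factors and the replication and mitotic genes that carry a cell through its division cycle. They were chosen as a fixed list, and all 46 were found among the 26485 genes of the mRNA count files and passed the filter on low counts, which left 15556 genes to test. Poly(A)-selected mRNA was sequenced in 36 libraries, 4 for each of 9 groups. DU145 is a prostate cancer cell line labelled LIN28A-negative. LIN28A OE DU145 is the same line with a LIN28A cDNA driven by a CMV promoter from an integrated lentivirus and selected with puromycin. IGROV1 is an ovarian cancer cell line that makes LIN28A of its own. Each background was present as wild type and as mutant 1 and mutant 2, which the study treats as independent clones (clone 1 and clone 2), in which both uridyl transferase genes, TUT4 and TUT7, were targeted with a Cas9 nickase. The labels give all libraries of mutant 1 of DU145 and of LIN28A OE DU145 the same clone name. In mutant 2 of both and in both IGROV1 mutants, the last number of the clone name differs between the 4 libraries, so passages of 1 clone and sister clones cannot be told apart there. The LIN28A OE mutants carry the clone labels of the DU145 mutants. The wild types are uncloned cultures, so within 1 clone the loss of TUT4/7 and the cloning itself cannot be told apart. The 4 libraries of a group carry successive passage numbers, and no label gives separate cultures of the wild types or of mutant 1 of DU145. The p-values therefore measure only the spread between libraries within groups, which was estimated for each gene over all 36 libraries together. The passage numbers were 9 to 12 and 8 to 11 in the DU145 mutants and far higher in DU145 wild type. They were 1 to 4 in all LIN28A OE groups, 6 to 9 in IGROV1 wild type, and 2 to 5 and 3 to 6 in its mutants.

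D-type cyclins with CDK4 or CDK6 start the phosphorylation of the retinoblastoma protein in G1, cyclin E with CDK2 completes it, and the E2F factors that are then set free switch on the genes of S phase. Cyclin A with CDK2 or CDK1 and cyclin B with CDK1 drive S phase, G2 and mitosis. Many genes of these phases are repressed outside them by the DREAM complex, which reads the cell cycle homology region (CHR) of their promoters. The INK4 inhibitors (CDKN2A to CDKN2D) block CDK4 and CDK6, whereas CDKN1B and CDKN1C block the cyclin E and cyclin A kinases. DU145 is known to lack a functional retinoblastoma protein. TUT4 and TUT7 add uridines to RNA 3′ ends, and LIN28A recruits them to the precursors of let-7, a microRNA family known to repress several G1 regulators.

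The libraries held 7195437 to 25054688 reads on genes, and no pair of replicates agreed within sampling noise. TUT7 (listed as ZCCHC6) was lower in all 6 mutant groups, by 0.85 to 1.60 on the log2 scale. TUT4 (listed as ZCCHC11) was lower in 4 of them, but in mutant 2 of DU145 it differed from wild type by a log2 fold change of -0.56 (adjusted p = 0.0708) and in mutant 2 of LIN28A OE DU145 by -0.25 (adjusted p = 0.465). The study's Western blots showed TUT4 and TUT7 protein depleted in both mutant clones of DU145 and of IGROV1, which counts of mRNA do not show. LIN28A averaged 69.6 CPM (reads of a gene scaled to the gene reads of its library) in LIN28A OE wild type, 379 in its mutant 1 and 262 in its mutant 2, so that the transgene itself differed between the groups compared within LIN28A OE DU145, and its part in their differences was not tested. The DU145 libraries expressed the epithelial keratin KRT8 but the prostate marker KLK3 at no more than 0.0753 CPM, which is near 0. In IGROV1, the summed CPM of 4 epithelial markers was 444.8 to 558.9 in wild type, 197.7 to 400.5 in mutant 1 and 27.7 to 46.5 in mutant 2. The sum in mutant 1 was nearly all KRT18, which averaged 226 CPM in wild type, 292 in mutant 1 and 32.8 in mutant 2. In the same order KRT8 averaged 195, 2.74 and 1.54 CPM, EPCAM 77.4, 0.245 and 0.127 CPM and CDH1 4.52, 0.881 and 0.222 CPM. The summed CPM of 3 ovarian markers was 428.4 to 854.8 in IGROV1, and nearly all of it was PAX8. PAX8 averaged 640 CPM in wild type, 800 in mutant 1 and 530 in mutant 2. In the same order WT1 averaged 0.329, 0.332 and 0.978 CPM and MUC16 2.11, 0.323 and 0.0667 CPM. MUC16 was higher in DU145 wild type, at a mean of 23.1 CPM, and in LIN28A OE mutant 2, at 145 CPM. The 4 fibroblast markers summed to 4.51 to 30.0 CPM in all groups, and the leukocyte marker PTPRC to no more than 0.343 CPM.

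Some libraries stood apart from their groups. Replicate 1 of LIN28A OE wild type differed from replicates 2 to 4 in most of the S-phase and mitotic members, as described next, and the calls that rest on it are also given without it, where the LIN28A OE counts are described. In 5 libraries (replicate 4 of both IGROV1 mutants and of both DU145 mutants, and replicate 1 of DU145 wild type) long genes lay 0.28 to 0.627 lower than short genes on the log2 scale relative to the rest of their group. MKI67, RB1 and E2F3 were the lowest of their group in replicate 4 of both IGROV1 mutants. Of these genes only MKI67 (12716 bases) was above the 7519 bases that marked long genes, against 4768 for RB1 and 5036 for E2F3. Replicate 4 of IGROV1 mutants 1 and 2 also held the lowest value of its group for 14 and 16 of 20 replication, G2/M and mitotic members.

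Most members of the later cell cycle moved together between libraries of the same group. The 20 members that act in replication licensing, G2/M and mitosis summed to 4724 CPM in replicate 1 of LIN28A OE wild type and to 1175.6, 986.9 and 1288.4 CPM in replicates 2 to 4, a range of 4.79-fold within 1 group. The range was 2.40-fold in DU145 wild type (2024.8 to 4850.4 CPM) and 2.55-fold in LIN28A OE mutant 1 (1942 to 4951), but 1.08-fold in DU145 mutant 2 (3817 to 4114) and 1.09-fold in IGROV1 wild type (2745 to 3003). Replicate 1 held the highest value of its group for 19 of the 20 members in LIN28A OE wild type and for 18 of 20 in LIN28A OE mutant 2. In DU145 wild type, replicate 2 held the lowest value for 19 of 20.

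**Figure D1:**
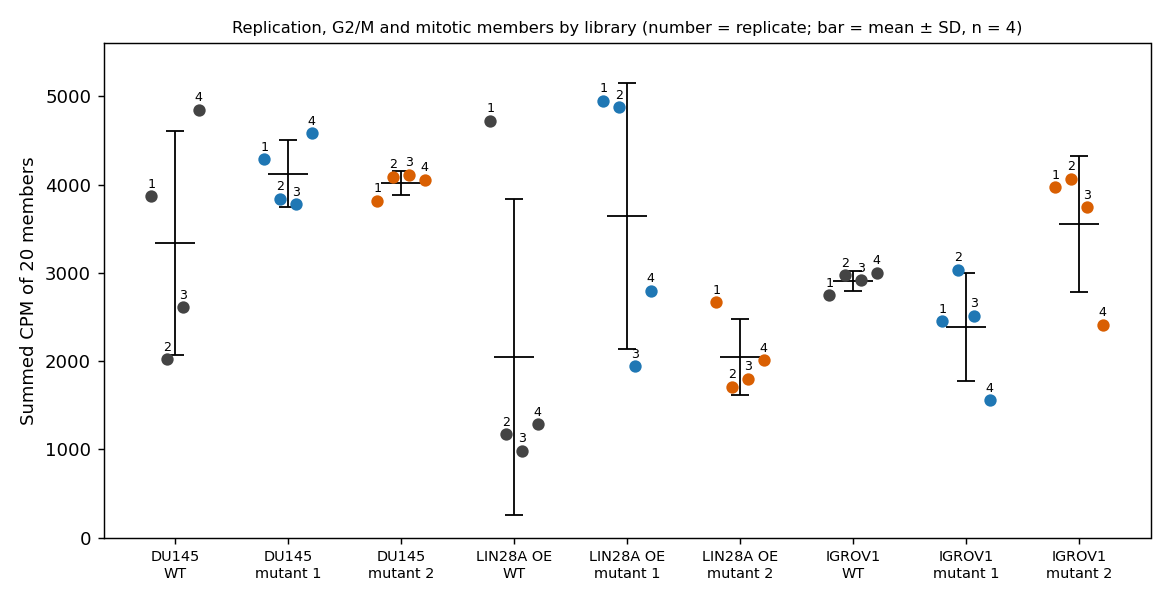
Summed CPM of the 20 replication, G2/M and mitotic members (y axis) in each of the 36 libraries, by group (x axis), with the replicate number above each point and the mean ± SD (n = 4) as a bar. Replicate 1 of LIN28A OE wild type lies at 4724 CPM against 986.9 to 1288.4 CPM in the other 3, and the libraries of IGROV1 wild type and DU145 mutant 2 lie close together.

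MKI67, the antigen of dividing cells that is used to score proliferation, had 834, 113, 70.1 and 125 CPM in LIN28A OE wild type. In LIN28A OE mutant 1 it had 741, 791, 239 and 347 CPM and in mutant 2 290.1, 157.7, 161 and 189.5 CPM. Replicate 1 of the wild type was thus above every library of both mutants, while replicates 2 to 4 were below every one of them. CCNB1, the mitotic cyclin, had 403, 50.6, 30.3 and 57.2 CPM in LIN28A OE wild type, and CDK1, its kinase, had 148, 25.9, 16.7 and 30.9 CPM. In parental DU145 wild type, CCNB1 had 388, 169, 245 and 458 CPM and CDK1 had 124, 60.5, 82.8 and 169.7 CPM, so both were lowest in replicate 2 and highest in replicate 4. IGROV1 wild type was even by comparison, with 179.8, 194, 185 and 172 CPM of CCNB1 and 76.9, 99.1, 88.6 and 90.3 CPM of CDK1.

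The within-group standard deviation of log2 CPM had a median of 0.604 over these 20 members and 0.488 over all 46, against 0.276 over the 15556 genes tested and 0.212 over the 8611 genes in the same range of levels. By role, the median was 0.72 for the mitotic genes, 0.582 for the G2/M regulators, 0.529 for the E2F factors, 0.425 for replication licensing and 0.286 for the G1 cyclins and their kinases. To describe how alike the members moved, the deviation of each from its group mean was set against the mean deviation of the other members of the 20 over all 36 libraries, which share their groups' passages and library preparation. Pearson's r was above 0.7 for 18 of the 20, led by CCNB2 (r = 0.988, Spearman's rho = 0.966), and the exceptions were WEE1 (r = 0.479), the kinase that holds CDK1 inactive, and CDC25B (r = 0.113), a phosphatase that activates CDK1. Of the other 26 members, 9 were above 0.7: CCNA2, CDC25A, CDK2, CDKN2C, E2F8, E2F2, E2F7, E2F1 and CDKN2D. The lowest was CDKN1C, an inhibitor found in resting cells, at r = -0.797 (rho = -0.788), and r stayed at -0.715 without the 2 libraries farthest from the median and at -0.687 without the LIN28A OE wild type. RBL2, the pocket protein of resting cells, was at -0.553, E2F5, a repressing E2F, at -0.484, and CDKN1B at -0.398. The D-type cyclins CCND1 (r = -0.06), CCND2 (r = -0.306) and CCND3 (r = 0.193), CDK6 (r = 0.209) and CDK7 (r = 0.116) did not follow the block. A further 28 G2/M genes and 26 G1/S genes that are not members moved with it (r = 0.964 and 0.972 for their mean deviation). Over all 36 libraries, r with the block was 0.235 for their depth and -0.126 for the deviation of long genes. For long genes this pooled value hid opposite relations within groups. In both IGROV1 mutants the library lowest in long genes (-0.627 and -0.435) was also lowest in the block (mean deviation -0.442 and -0.329). In DU145 wild type the library lowest in long genes (-0.372) lay above its group mean in the block (0.418). The library highest in long genes (0.201) was lowest in the block there (-0.68). Whether gene length had a part in the block was not tested.

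**Figure D2:**
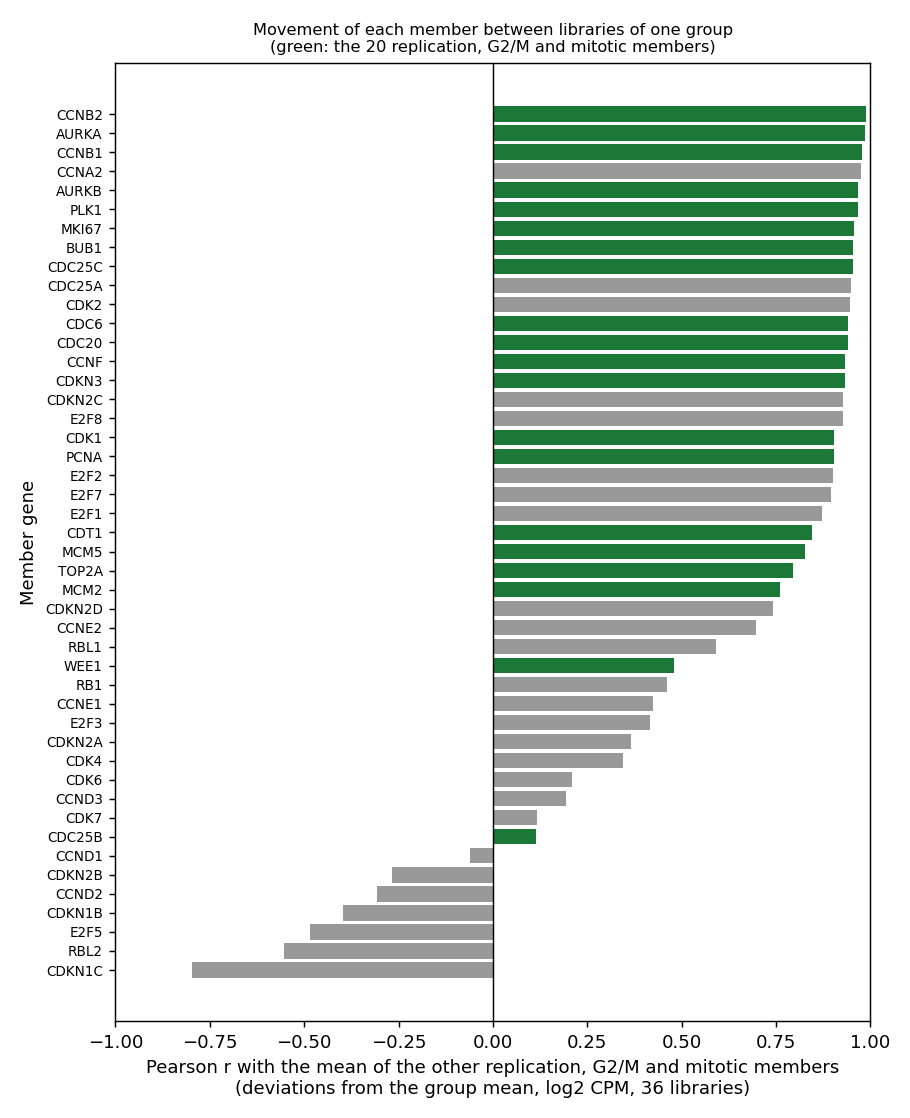
Pearson's r (x axis) of each of the 46 members (y axis) with the mean of the other replication, G2/M and mitotic members, over 36 libraries, from deviations of log2 CPM from the group mean; the 20 members of these roles are in green. CCNB2 and AURKA head the plot, CCNA2 and CDC25A lie among the green bars, and CDKN1C lies at the bottom with r = -0.797.

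Promoters were examined because so many of the members moved together. RefSeq gave 36 of the 46 members at least 1 window of 250 bases before to 50 bases after a transcription start (GRCh38.p14), and a gene was counted when any of its windows held the motif. The CHR hexamer TTTGAA, on either strand, was present in 9 of 13 G2/M and mitotic members with a window (CCNB2, CCNF, CDK1, CDC25C, PLK1, CDKN3, CDC20, TOP2A and MKI67), in 1 of 12 G1/S, E2F and replication members (E2F3) and in 1 of 11 G1 cyclin, inhibitor and pocket protein members (RBL2), against 18.2% of all 27305 genes with a window. An E2F octamer (TTTCCCGC, TTTCGCGC, TTTGCCGC or TTTGGCGC, on either strand) was present in 8 of the 12 G1/S, E2F and replication members (CDC25A, E2F1, E2F2, E2F3, CDC6, CDT1, MCM2 and PCNA), in 1 of 13 G2/M and mitotic members (CDK1) and in 1 of the remaining 11 (RBL1), against 3.99% of all. No E2F or CHR match was found in the windows of CCND3, CDK4, CDK6, CDK7, CDKN2A and CDKN2B, which says only that these letters are not there. At least 2 copies of CCAAT, on either strand, were present in 10 of the 13 G2/M and mitotic members, in 6 of the 12 G1/S, E2F and replication members and in 1 of the remaining 11 (CDKN1B), against 12.9% of all genes. The 120 bases upstream of the start are shown for 4 members with a CHR match, with the hexamer in capitals. The hexamer begins 29 bases before the start in CCNB2 (chr15:59105026-59105145, plus strand) and PLK1 (chr16:23678769-23678888, plus strand), 65 bases before it in CDC20 (chr1:43358861-43358980, plus strand), and 47 and 29 bases before it in MKI67 (chr10:128126424-128126543, minus strand).
CCNB2: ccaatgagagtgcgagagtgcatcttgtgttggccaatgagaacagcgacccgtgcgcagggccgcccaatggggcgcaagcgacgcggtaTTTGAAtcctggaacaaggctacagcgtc
PLK1: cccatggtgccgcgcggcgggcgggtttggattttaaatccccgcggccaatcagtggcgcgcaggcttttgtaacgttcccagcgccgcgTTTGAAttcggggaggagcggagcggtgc
CDC20: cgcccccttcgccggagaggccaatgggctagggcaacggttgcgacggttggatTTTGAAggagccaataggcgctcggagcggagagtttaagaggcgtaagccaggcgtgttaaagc
MKI67: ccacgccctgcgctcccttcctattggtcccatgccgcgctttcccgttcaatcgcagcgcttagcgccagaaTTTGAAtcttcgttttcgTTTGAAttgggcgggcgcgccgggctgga

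The same stretch is shown for 4 members with an E2F octamer, in capitals, in the direction of transcription. It begins 33 and 20 bases before the start in E2F1 (chr20:33686386-33686505, minus strand), 44 bases before it in CDC25A (chr3:48188418-48188537, minus strand), 35 in CDT1 (chr16:88803669-88803788, plus strand) and 59 in PCNA (chr20:5126623-5126742, minus strand). Of the 8 genes shown, which were picked from the members with a match, CDT1 had the lowest r with the block, at 0.845. Some members with a match that are not shown lay lower. They were TOP2A (CHR, r = 0.794), MCM2 (E2F, r = 0.76), RBL1 (E2F, r = 0.591), E2F3 (both motifs, r = 0.416) and RBL2 (CHR, r = -0.553). CCNF, CDK1, CDC25C, CDKN3, E2F2 and CDC6 lay above CDT1. Members with a window but no CHR or E2F match went both ways. CCNB1 (r = 0.979), BUB1 (r = 0.954) and E2F7 (r = 0.897) also lay above CDT1, while CCND3, CDK4, CDK6, CDK7, CDKN2A and CDKN2B lay at 0.367 or lower.
E2F1: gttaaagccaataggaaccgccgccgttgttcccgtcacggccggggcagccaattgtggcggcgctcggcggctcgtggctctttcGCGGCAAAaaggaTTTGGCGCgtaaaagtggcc
CDC25A: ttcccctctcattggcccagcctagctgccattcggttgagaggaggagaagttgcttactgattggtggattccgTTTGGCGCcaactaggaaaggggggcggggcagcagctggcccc
CDT1: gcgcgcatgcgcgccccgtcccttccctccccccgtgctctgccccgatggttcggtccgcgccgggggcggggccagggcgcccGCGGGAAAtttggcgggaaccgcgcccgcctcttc
PCNA: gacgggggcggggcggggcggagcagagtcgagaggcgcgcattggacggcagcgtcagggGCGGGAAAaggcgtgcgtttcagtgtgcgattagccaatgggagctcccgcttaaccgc

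To ask what the loss of TUT4/7 did to the members, each clone was compared with the wild type of its own background, at a false discovery rate under 0.01 over all genes. In DU145 mutant 1, 6 of 46 members were called, all higher, against 21.8% of all genes tested (10.4% higher and 11.3% lower). In DU145 mutant 2, 6 were called, 3 higher and 3 lower (all genes, 20.5%, or 9.99% higher and 10.5% lower). In LIN28A OE DU145, 16 were called in mutant 1, 13 higher and 3 lower (all genes, 25.2%, or 11.3% higher and 13.9% lower). In its mutant 2, 4 were called, all lower (all genes, 20.6%, or 10.5% higher and 10.1% lower). In IGROV1 mutant 1, 8 were called, 5 higher and 3 lower (all genes, 31.1%, or 14.5% higher and 16.6% lower). In IGROV1 mutant 2, 8 were called, 5 higher and 3 lower (all genes, 30.1%, or 14.2% higher and 15.9% lower). The replicate numbers paired the libraries in LIN28A OE mutant 2 against wild type, where a fit of only these 2 groups called 2 members without and 4 with the replicate block (all genes, 17.5% and 21.7%). The share of members called was therefore below that of all genes in every mutant group but LIN28A OE mutant 1, where it was 34.8%. Both clones of a background were compared with the same 4 wild-type libraries, so their values are given side by side and are not independent.

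**Figure D3:**
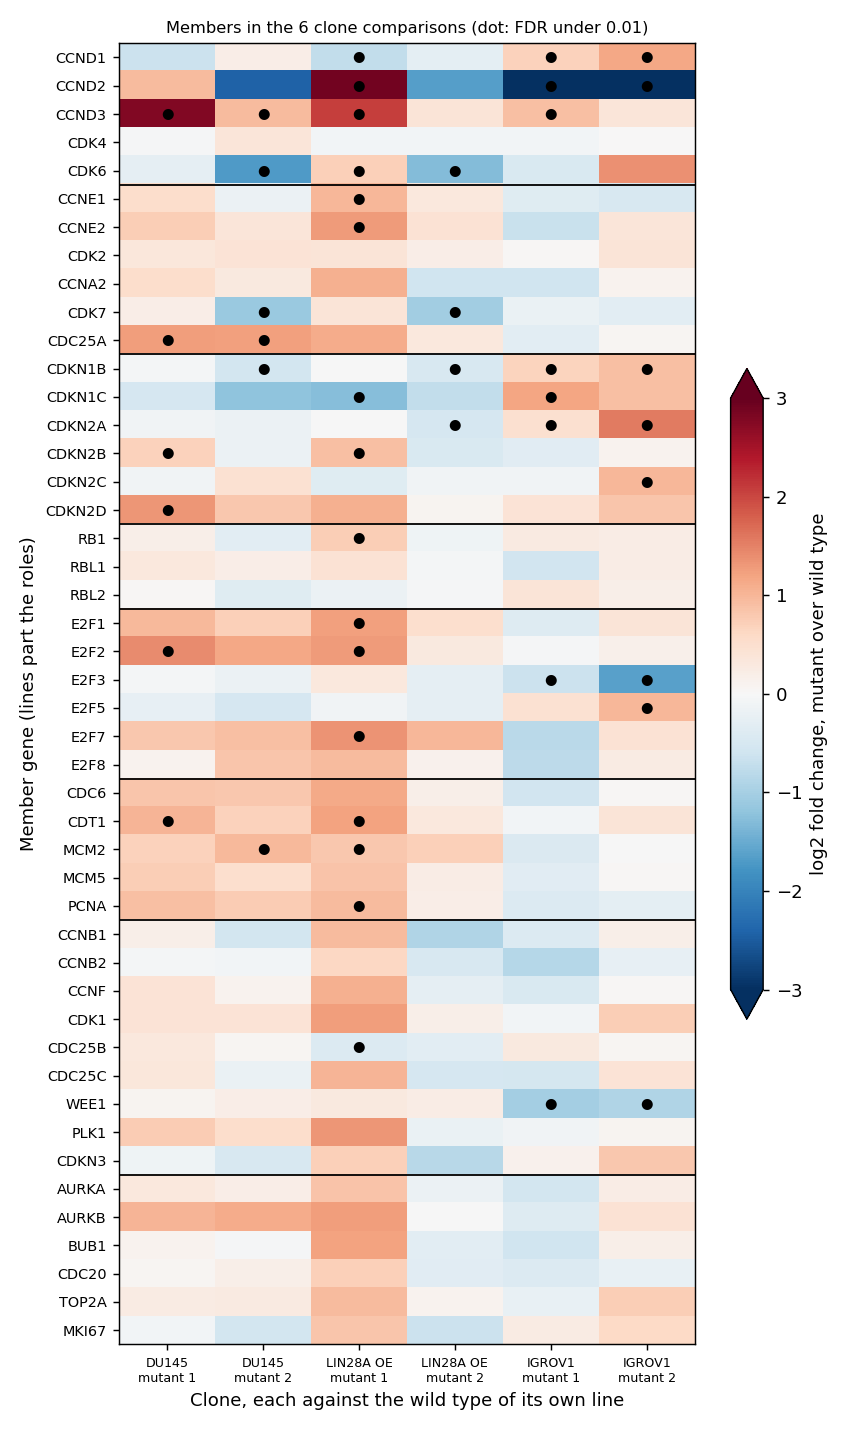
Log2 fold change (colour, cut at -3 and 3) of the 46 members (rows, grouped by role) in each clone against the wild type of its own background (columns); a dot marks a false discovery rate under 0.01. The dots lie mainly on D-type cyclins, CDK6, CDK7 and inhibitors, and in LIN28A OE mutant 1 also on E2F and replication genes.

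Among the G1 cyclins, CCND3 showed the largest rise in DU145. CCND3, cyclin D3 (chr6:41934934-42050357), had 35.4, 22.9, 17.4 and 31.2 CPM in DU145 wild type. Mutant 1 had 137, 200.2, 186 and 208 CPM and mutant 2 had 48.5, 60.4, 52.3 and 64.1 CPM. The 3 groups do not overlap, and it rose in mutant 1 (log2 fold change 2.77 ± 0.20, adjusted p = 1.43e-12) and in mutant 2 (log2 fold change 0.95 ± 0.19, adjusted p = 2.11e-04). In LIN28A OE DU145 it had 64.6, 62.1, 50.7 and 44.9 CPM in wild type. Mutant 1 had 231, 190.1, 249.2 and 299 CPM and mutant 2 had 88.8, 92.6, 65.5 and 73 CPM. It rose in mutant 1 (log2 fold change 2.07 ± 0.19, adjusted p = 2.25e-10), and the difference of 0.39 ± 0.18, adjusted p = 0.112 in mutant 2 did not pass. In IGROV1 it had 28, 26.79, 29.3 and 28.5 CPM in wild type. Mutant 1 had 41.7, 50.2, 47.5 and 63 CPM and mutant 2 had 36.6, 33.8, 35.8 and 40 CPM. It was called in mutant 1 (log2 fold change 0.91 ± 0.19, adjusted p = 1.81e-04) but not in mutant 2 (0.36 ± 0.19, adjusted p = 0.128). The 4 calls held whichever library was left out. The 89 genes tested within 5 Mb of CCND3 had a median log2 fold change of 0.10 in DU145 mutant 1.

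CCND1, cyclin D1 (chr11:69641156-69654474), was the most abundant D-type cyclin per length, at 112 CPM per kb of transcript in DU145 wild type against 13.2 for CCND3 and 0.0447 for CCND2. In IGROV1 it had 1299, 1239, 1268 and 1241 CPM in wild type. Mutant 1 had 2356, 1975, 1878 and 1587 CPM and mutant 2 had 3150.0, 2664, 2957 and 2614 CPM. Both clones lay above all wild-type libraries and did not overlap each other (log2 fold change 0.68 ± 0.21, adjusted p = 0.00807 in mutant 1, and log2 fold change 1.15 ± 0.21, adjusted p = 3.21e-05 in mutant 2). The CCND1 call in IGROV1 mutant 1 was lost in 7 of 8 fits without 1 library, with adjusted p up to 0.0331 without replicate 1 of IGROV1 mutant 1. In DU145 it had 487, 474, 517 and 411 CPM in wild type. Mutant 1 had 273, 334, 335 and 273 CPM and mutant 2 had 566, 566, 630.4 and 584 CPM. The clones lay on opposite sides of the wild type, neither difference passed (-0.64 ± 0.21, adjusted p = 0.0167 and 0.19 ± 0.21, adjusted p = 0.52), and mutant 2 was above mutant 1 (log2 fold change 0.83 ± 0.21, adjusted p = 0.00155). In LIN28A OE DU145 it ranged from 319.0 to 669 CPM in wild type, 213 to 444 CPM in mutant 1 and 279 to 583 CPM in mutant 2, groups that overlap, and was called lower in mutant 1 (log2 fold change -0.74 ± 0.21, adjusted p = 0.00559), a call that was lost in 5 of 8 fits without 1 library, with adjusted p up to 0.0638 without replicate 2 of LIN28A OE wild type.

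CCND2, cyclin D2 (chr12:4269771-4305353), was low everywhere and highest in IGROV1 wild type, at 7.92, 7.7, 8.38 and 8.08 CPM. In IGROV1 mutant 1 it had 1.03, 1.01, 0.413 and 0.388 CPM and in mutant 2 0.202, 0.239, 0.301 and 0.198 CPM. It fell in both (log2 fold change -3.30 ± 0.33, adjusted p = 6.02e-10 and log2 fold change -5.09 ± 0.38, adjusted p = 4.69e-13), with 44 and 17 reads left over the 4 libraries of each, and was lower in mutant 2 than in mutant 1 (log2 fold change -1.79 ± 0.47, adjusted p = 0.00413). That call between the mutants was lost in 4 of 8 fits without 1 library. In LIN28A OE DU145 it had 0.166, 0.116, 0.367 and 0.507 CPM in wild type and 1.15, 1.18, 3.41 and 2.51 CPM in mutant 1, an increase (log2 fold change 2.90 ± 0.43, adjusted p = 1.83e-06) that rests on 15 and 128 reads. Mutant 2 held 5 reads there, and in DU145 the wild type, mutant 1 and mutant 2 held 11, 23 and 2 reads, and no fold change between these groups is given.

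CDK6 (chr7:92604921-92836573) and CDK4 are the kinases of these cyclins. CDK6 had 19.3, 22.5, 21.98 and 18.4 CPM in DU145 wild type. Mutant 1 had 17.4, 17.6, 18.6 and 14.4 CPM and mutant 2 had 7.91, 6.5, 6.92 and 6.29 CPM. Mutant 2 lay below all other DU145 libraries (log2 fold change -1.69 ± 0.18, adjusted p = 8.09e-09), while mutant 1 did not pass (-0.28 ± 0.17, adjusted p = 0.226). In LIN28A OE DU145 it had 21.7, 14.2, 11.7 and 11.8 CPM in wild type. Mutant 1 had 22.4, 31, 22.8 and 25.5 CPM and mutant 2 had 6.8, 6.85, 6.7 and 6.27 CPM. The same clone 2 was lower (log2 fold change -1.29 ± 0.18, adjusted p = 7.71e-07), and mutant 1 was higher (log2 fold change 0.72 ± 0.17, adjusted p = 0.00109). The 43 genes tested within 5 Mb of CDK6 had a median log2 fold change of -0.53 in DU145 mutant 2 and -0.68 in DU145 mutant 1, so neighbours were low in both clones and CDK6 was called in 1. IGROV1 held no more than 0.202 CPM of CDK6 in any library. CDK4 was not called in any clone against its wild type, and had 154, 88, 92 and 121 CPM in DU145 wild type against 268, 256, 266 and 267 CPM in IGROV1 wild type.

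**Figure D4:**
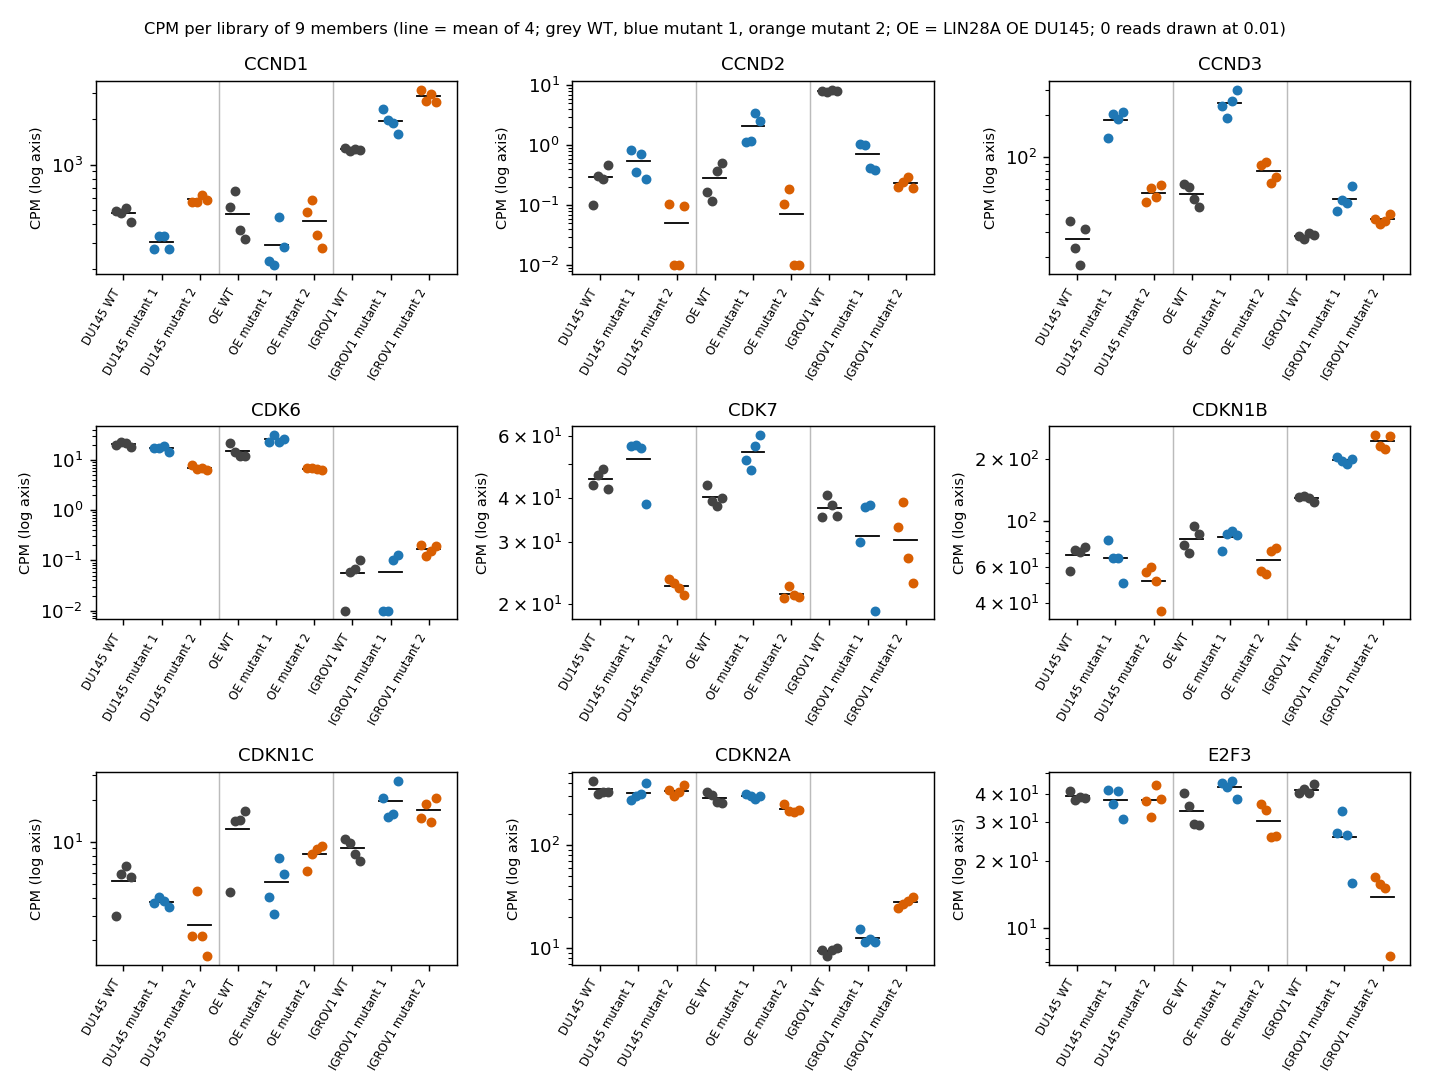
CPM (log axis) of 9 members in each of the 36 libraries by group (x axis), with the mean of 4 as a line; a library with 0 reads is drawn at 0.01 CPM. CCND3 is high in both clone 1 groups of DU145, CDK6 and CDK7 are low in both clone 2 groups, and CCND1, CDKN1B and CDKN2A step up from IGROV1 wild type to mutant 1 and mutant 2.

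At the G1/S step, CDC25A, the phosphatase that activates CDK2, had 16.8, 8.31, 9.29 and 18.1 CPM in DU145 wild type. Mutant 1 had 29.5, 32.8, 27.3 and 35.9 CPM and mutant 2 had 24, 38.3, 31.3 and 39.8 CPM. All mutant libraries lay above all wild-type ones (log2 fold change 1.25 ± 0.35, adjusted p = 0.00612 and log2 fold change 1.23 ± 0.35, adjusted p = 0.0074), but the call in mutant 1 was lost in 5 of 8 fits without 1 library, with adjusted p up to 0.0347 without replicate 2 of DU145 wild type, and that in mutant 2 was lost in 5 of 8 fits without 1 library, with adjusted p up to 0.0427 without replicate 2 of DU145 wild type. Both calls were also lost without the 5 libraries low in long genes (adjusted p = 0.0143 and 0.0214). CDC25A moved with the block, and DU145 wild type is a group in which the block varied 2.40-fold. In LIN28A OE it had 22.03, 5.64, 3.31 and 4.97 CPM in wild type. Mutant 1 had 27.6, 28, 13.4 and 13.3 CPM and mutant 2 had 14.4, 11.7, 11.8 and 11.8 CPM, where the wild type overlapped both through replicate 1. CCNE1, cyclin E1 (chr19:29811991-29824312), had 8.63, 5.87, 5.21 and 8.21 CPM in LIN28A OE wild type and 15.1, 14.4, 13.3 and 14.8 CPM in mutant 1, which did not overlap (log2 fold change 1.00 ± 0.16, adjusted p = 1.13e-05). CCNE1 was not called in the other clones, and in DU145 it had 8.9, 7.27, 6.62 and 7.42 CPM in wild type. Mutant 1 had 11.5, 13, 8.88 and 10.3 CPM and mutant 2 had 7.69, 8.25, 4.7 and 8.7 CPM. CCNE2, cyclin E2, was called in LIN28A OE mutant 1 (log2 fold change 1.29 ± 0.38, adjusted p = 0.00704), with 17.3, 5.75, 4.26 and 7.3 CPM in wild type and 25.5, 30.6, 17.9 and 14.6 CPM in the mutant, and replicate 1 of the wild type lay inside the range of the mutant. The CCNE2 call in LIN28A OE mutant 1 was lost in 5 of 8 fits without 1 library, with adjusted p up to 0.0374 without replicate 3 of LIN28A OE wild type. CDK2 and CCNA2, which follow the block, were called in no clone.

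CDK7, the kinase that activates the other CDKs and lies at chr5:69234795-69277430, separated clone 2 of DU145 from the rest. It had 43.6, 46.3, 48.3 and 42.3 CPM in DU145 wild type. Mutant 1 had 56.2, 56.3, 55.3 and 38.4 CPM and mutant 2 had 23.5, 23, 22.2 and 21.2 CPM. LIN28A OE wild type had 43.5, 39.1, 37.8 and 39.9 CPM. Its mutant 1 had 51.1, 48.1, 56.3 and 60.2 CPM and its mutant 2 had 20.8, 22.5, 21.2 and 20.9 CPM. Clone 2 lay below every other DU145 library in both backgrounds (log2 fold change -1.12 ± 0.14, adjusted p = 1.04e-07 and log2 fold change -1.04 ± 0.14, adjusted p = 3.28e-07). The 638 other genes tested on chromosome 5 had a median log2 fold change of -0.48 in DU145 mutant 2 and -0.45 in LIN28A OE mutant 2, against 0.14 and 0.16 in mutant 1. CCNB1, which lies next to CDK7 at chr5:69167135-69178245, had a log2 fold change of -0.56 ± 0.45, adjusted p = 0.381 in DU145 mutant 2, and CDC25C, also on chromosome 5, -0.20 ± 0.42, adjusted p = 0.764. A change in the number of copies of the chromosome was not tested. In IGROV1 CDK7 was not called in either clone.

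The CDK inhibitors moved differently in the lines. CDKN1B, which encodes p27 (chr12:12685498-12722369), had 131, 132, 129 and 123 CPM in IGROV1 wild type. Mutant 1 had 204, 197, 189.7 and 199 CPM and mutant 2 had 261, 232, 224 and 258 CPM. The 3 groups do not overlap, and it rose in both clones (log2 fold change 0.68 ± 0.13, adjusted p = 4.10e-05 and log2 fold change 0.90 ± 0.13, adjusted p = 3.98e-07), whichever library was left out. In DU145 it had 57.1, 72.7, 71.1 and 74.8 CPM in wild type. Mutant 1 had 81.2, 66.6, 66 and 50.2 CPM and mutant 2 had 56.9, 60.1, 51.2 and 36.8 CPM. It was called lower in mutant 2 (log2 fold change -0.55 ± 0.13, adjusted p = 0.00113), although the lowest wild-type library overlapped the mutant. In LIN28A OE mutant 2 it was also called lower (log2 fold change -0.48 ± 0.13, adjusted p = 0.00373), with 57.3, 55.4, 71.8 and 74.1 CPM against 76.5, 70.4, 94.8 and 86.3 CPM in wild type, which overlap. The CDKN1B call in LIN28A OE mutant 2 was lost in 3 of 8 fits without 1 library, with adjusted p up to 0.0224 without replicate 3 of LIN28A OE wild type.

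CDKN2A, the locus of p16 and ARF (chr9:21967752-21995301), had 9.47, 8.36, 9.51 and 10 CPM in IGROV1 wild type. Mutant 1 had 15.2, 11.5, 12.3 and 11.4 CPM and mutant 2 had 24.4, 26.9, 28.4 and 31.6 CPM. The groups do not overlap (log2 fold change 0.49 ± 0.14, adjusted p = 0.00587, and log2 fold change 1.56 ± 0.14, adjusted p = 4.15e-11). The CDKN2A call in IGROV1 mutant 1 was lost in 5 of 8 fits without 1 library, with adjusted p up to 0.0395 without replicate 1 of IGROV1 mutant 1. In DU145 it was far more abundant, with 423, 311, 326 and 329.9 CPM in wild type. Mutant 1 had 276, 299, 314 and 398 CPM and mutant 2 had 345, 297, 326 and 379 CPM, groups that overlap. In LIN28A OE mutant 2 it was lower (log2 fold change -0.51 ± 0.13, adjusted p = 0.00277), at 248, 214, 209.8 and 218 CPM against 330.3, 309, 260.1 and 255 CPM, without overlap. The CDKN2A call in LIN28A OE mutant 2 was lost in 4 of 8 fits without 1 library, with adjusted p up to 0.0148 without replicate 3 of LIN28A OE mutant 2. The counts do not part p16 from ARF, whose transcripts share exons.

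CDKN2B, the neighbouring gene for p15 (chr9:22002903-22009305), rose in clone 1 of DU145. It had 27.7, 39.9, 42 and 29.9 CPM in DU145 wild type and 62.5, 49.1, 61.4 and 52.4 CPM in mutant 1, without overlap (log2 fold change 0.69 ± 0.18, adjusted p = 0.0036), and 41.7, 61.8, 50.8 and 45.1 CPM in LIN28A OE wild type and 79.5, 94.2, 118 and 97 CPM in its mutant 1, again without overlap (log2 fold change 0.91 ± 0.18, adjusted p = 1.29e-04). The CDKN2B call in DU145 mutant 1 was lost in 3 of 8 fits without 1 library, with adjusted p up to 0.0168 without replicate 1 of DU145 wild type. Clone 2 had 35.6, 36, 37 and 25.7 CPM in DU145 and 44.1, 49.4, 37.3 and 28.1 CPM in LIN28A OE and was called in neither background.

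CDKN1C, which encodes p57 (chr11:2883213-2885775), had 10.6, 9.84, 8.25 and 7.3 CPM in IGROV1 wild type. Mutant 1 had 20.5, 15.1, 15.7 and 27.3 CPM and mutant 2 had 14.8, 18.5, 13.8 and 20.4 CPM. Both clones lay above all wild-type libraries, and mutant 1 passed (log2 fold change 1.19 ± 0.29, adjusted p = 0.00126) while mutant 2 did not (0.89 ± 0.29, adjusted p = 0.013). In LIN28A OE it had 4.43, 14.1, 14.2 and 16.7 CPM in wild type, where replicate 1 was low as the block was high. Mutant 1 had 4.05, 3.09, 7.69 and 5.89 CPM and mutant 2 had 6.18, 8.26, 8.88 and 9.4 CPM. It was called lower in mutant 1 (log2 fold change -1.28 ± 0.30, adjusted p = 0.00116). In DU145 it ranged from 1.55 to 6.71 CPM over all groups and was not called.

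CDKN2C, which encodes p18, had 21.9, 20.1, 20.2 and 19.3 CPM in IGROV1 wild type. Mutant 1 had 20.1, 23.4, 18.3 and 11.3 CPM and mutant 2 had 47.9, 45.3, 38.9 and 34.4 CPM, where it rose (log2 fold change 1.01 ± 0.29, adjusted p = 0.00499). The CDKN2C call in IGROV1 mutant 2 was lost in 6 of 8 fits without 1 library, with adjusted p up to 0.0155 without replicate 1 of IGROV1 mutant 2. In DU145 wild type it had 50.4, 24.5, 29.9 and 54.3 CPM, which spans the 36.5, 34.7, 35.2 and 43.1 CPM of mutant 1, and LIN28A OE wild type had 63.8, 27.7, 21.1 and 22.8 CPM. CDKN2D, which encodes p19, had 4.71, 1.25, 2.58 and 6.6 CPM in DU145 wild type and 8.59, 10.1, 9.24 and 9.87 CPM in mutant 1 (log2 fold change 1.33 ± 0.35, adjusted p = 0.00322), with 142 reads behind the wild type. The groups do not overlap, and the call was lost in 2 of 8 fits without 1 library, with adjusted p up to 0.0241 without replicate 2 of DU145 wild type.

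Of the pocket proteins, RB1 (chr13:48303744-48599436) was called in LIN28A OE mutant 1 alone among the 6 mutant groups (log2 fold change 0.73 ± 0.21, adjusted p = 0.00732), at 101, 115, 82.5 and 74.3 CPM against 69.5, 44, 51.3 and 51.9 CPM. The RB1 call in LIN28A OE mutant 1 was lost in 5 of 8 fits without 1 library, with adjusted p up to 0.0368 without replicate 2 of LIN28A OE mutant 1. In IGROV1 it had 55.2, 69.3, 63.9 and 57 CPM in wild type. Mutant 1 had 85, 94.2, 81.5 and 27.3 CPM and mutant 2 had 85.8, 90.3, 76.2 and 42.9 CPM. Replicate 4 of each mutant was the lowest there, and these are libraries low in long genes, although RB1 itself was not among the long genes. DU145 held 54.6, 58.4, 75.6 and 74.2 CPM of RB1 mRNA in wild type. RBL1 and RBL2 were called in no clone.

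E2F3, an activating E2F (chr6:20401879-20493714), fell in IGROV1. It had 40.5, 42, 40.2 and 44.4 CPM in wild type. Mutant 1 had 15.9 to 33.7 CPM and mutant 2 had 16.9, 15.7, 15.1 and 7.44 CPM (log2 fold change -0.65 ± 0.17, adjusted p = 0.00257 and log2 fold change -1.63 ± 0.18, adjusted p = 2.30e-09). Every mutant library lay below every wild-type library, replicate 4 was lowest in both mutants, and the call in mutant 1 was lost in 1 of 8 fits without 1 library, with adjusted p up to 0.0223 without replicate 4 of IGROV1 mutant 1, while that in mutant 2 held. E2F3 was called in no DU145 clone, where it had 41.3, 37.6, 38.6 and 38.5 CPM in wild type. Mutant 1 had 41.9, 35.9, 41.1 and 30.7 CPM and mutant 2 had 37.2, 31.6, 43.9 and 37.9 CPM. E2F5 rose in IGROV1 mutant 2 (log2 fold change 1.00 ± 0.18, adjusted p = 3.42e-05). E2F1 had 62.6, 17.3, 27.7 and 48.2 CPM in DU145 wild type. Mutant 1 had 67.9, 75.3, 61.2 and 104 CPM and mutant 2 had 62.5, 75.7, 67.7 and 74.8 CPM. Neither difference passed (0.98 ± 0.33, adjusted p = 0.0217 and 0.72 ± 0.33, adjusted p = 0.0966). In LIN28A OE it had 61.2, 18.3, 14.3 and 18.6 CPM in wild type and 93.1, 80, 43 and 56.1 CPM in mutant 1, where E2F1 was called higher (log2 fold change 1.22 ± 0.33, adjusted p = 0.00403). E2F2 had 13.2, 3.12, 6.62 and 13.6 CPM in DU145 wild type and 19.3, 24.7, 19.2 and 34.6 CPM in mutant 1 (log2 fold change 1.42 ± 0.40, adjusted p = 0.00619), and 20.8, 5.34, 3.75 and 3.95 CPM in LIN28A OE wild type and 31.3, 27.1, 15.2 and 13 CPM in mutant 1 (log2 fold change 1.27 ± 0.39, adjusted p = 0.00968). In LIN28A OE mutant 1 the call of E2F1 was lost in 5 of 8 fits without 1 library, with adjusted p up to 0.0248 without replicate 3 of LIN28A OE wild type, and that of E2F2 was lost in 5 of 8 fits without 1 library, with adjusted p up to 0.0507 without replicate 1 of LIN28A OE mutant 1. In DU145 mutant 1 that of E2F2 was lost in 4 of 8 fits without 1 library, with adjusted p up to 0.0374 without replicate 2 of DU145 wild type. E2F7, a repressing E2F, was called higher in LIN28A OE mutant 1 (log2 fold change 1.35 ± 0.38, adjusted p = 0.0059), and E2F8 in no clone. The E2F7 call in LIN28A OE mutant 1 was lost in 5 of 8 fits without 1 library, with adjusted p up to 0.0333 without replicate 2 of LIN28A OE wild type.

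Among the replication genes, CDT1, the licensing factor, was called higher in mutant 1 of DU145 (log2 fold change 1.01 ± 0.29, adjusted p = 0.00643) and of LIN28A OE (log2 fold change 1.21 ± 0.29, adjusted p = 0.00107). The CDT1 call in DU145 mutant 1 was lost in 4 of 8 fits without 1 library, with adjusted p up to 0.0468 without replicate 4 of DU145 mutant 1. MCM2, a helicase subunit, was called higher in DU145 mutant 2 (log2 fold change 0.98 ± 0.24, adjusted p = 0.00185) and LIN28A OE mutant 1 (log2 fold change 0.80 ± 0.24, adjusted p = 0.0084). The MCM2 call in LIN28A OE mutant 1 was lost in 5 of 8 fits without 1 library, with adjusted p up to 0.0453 without replicate 3 of LIN28A OE wild type. The MCM2 call in DU145 mutant 2 was lost in 3 of 8 fits without 1 library, with adjusted p up to 0.0215 without replicate 2 of DU145 wild type. PCNA, the sliding clamp, was called higher in LIN28A OE mutant 1 (log2 fold change 0.95 ± 0.28, adjusted p = 0.00668). The PCNA call in LIN28A OE mutant 1 was lost in 5 of 8 fits without 1 library, with adjusted p up to 0.0404 without replicate 1 of LIN28A OE mutant 1. CDC6 and MCM5 were called in no clone. Of the 9 G2/M members, WEE1 (chr11:9573670-9593457) fell in IGROV1. It had 96.9, 92.9, 95.5 and 100.1 CPM in wild type. Mutant 1 had 53.5, 58.2, 43 and 29.8 CPM and mutant 2 had 63.4, 57.1, 53 and 36.5 CPM. Both clones lay below all wild-type libraries, and the calls held whichever library was left out (log2 fold change -1.01 ± 0.16, adjusted p = 5.32e-06 and log2 fold change -0.91 ± 0.16, adjusted p = 2.57e-05). CDC25B was lower in LIN28A OE mutant 1 (log2 fold change -0.42 ± 0.12, adjusted p = 0.00799). The CDC25B call in LIN28A OE mutant 1 was lost in 5 of 8 fits without 1 library, with adjusted p up to 0.0797 without replicate 3 of LIN28A OE mutant 1. CCNB1, CCNB2, CCNF, CDK1, CDC25C, PLK1 and CDKN3, and the 6 mitotic members AURKA, AURKB, BUB1, CDC20, TOP2A and MKI67, were not called in any of the 6 comparisons with wild type.

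The LIN28A OE counts depended on 1 library. Without replicate 1 of LIN28A OE wild type, 35 members were called in mutant 1, 33 higher and 2 lower, when 29.9% of all genes were called, and 18 in mutant 2, 14 higher and 4 lower, when 20.3% were. All 6 mitotic members were then called in mutant 1. The median log2 fold change of the 46 members in mutant 1 was 0.89 with this library and 1.78 without it. In mutant 2 the median turned from -0.12 with it to 0.74 without it, while that of all genes stayed between -0.01 and 0.02 in these fits. Without it the log2 fold changes in mutant 1 were 1.94 for E2F1, 2.24 for E2F2, 2.49 for E2F7, 1.90 for CCNE2, 1.78 for CDT1, 1.20 for MCM2, 1.51 for PCNA and -1.57 for CDKN1C, so these members lay farther from 0. CCND2 (2.70), CCND3 (2.15), CCNE1 (1.13), CDK6 (0.96), CDKN2B (0.83), RB1 (0.88) and CDC25B (-0.47) were also still called, and CCND1 was not (-0.68, adjusted p = 0.0133). In mutant 2, CDK6 (-1.05), CDK7 (-1.004) and CDKN1B (-0.51) were still called, and CDKN2A was not (-0.44, adjusted p = 0.0129).

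The clones of a line were also compared with each other. In DU145, 8 members were called between mutant 2 and mutant 1, 1 higher and 7 lower (all genes, 31.1%, or 15.4% higher and 15.7% lower). The replicate numbers paired these libraries, and a fit of only these 2 groups called 10 members without and 20 with the replicate block (all genes, 34.5% and 56.1%). In LIN28A OE 18 were called, all lower (all genes, 37.6%, or 20% higher and 17.6% lower). CDK6 (log2 fold change -1.41 ± 0.18, adjusted p = 1.45e-07 in DU145 and log2 fold change -2.01 ± 0.18, adjusted p = 4.81e-11 in LIN28A OE), CDK7 (log2 fold change -1.31 ± 0.14, adjusted p = 2.68e-09 and log2 fold change -1.42 ± 0.14, adjusted p = 3.18e-10) and CDKN2B (log2 fold change -0.86 ± 0.18, adjusted p = 2.36e-04 and log2 fold change -1.37 ± 0.18, adjusted p = 1.48e-07) were lower in clone 2 in both backgrounds, which hold different libraries under the same clone labels. CCND3 was lower in clone 2 as well (-1.82 and -1.68). In LIN28A OE the lower members included CCNB1 (log2 fold change -1.85 ± 0.47, adjusted p = 0.00145), CCNA2, PLK1, CDKN3, CDC25C, BUB1 and CCNF, in a background where the summed block of mutant 1 ranged from 1942 to 4951 CPM. Of these calls, that of BUB1 was lost in 6 of 8 fits without 1 library, those of CCNA2 and PLK1 in 5 and those of CCNF and CDC25C in 4. In IGROV1, 5 members were called between the clones, 3 higher and 2 lower in mutant 2 (all genes, 18.8%, or 10% higher and 8.79% lower). They were CDKN2A (log2 fold change 1.06 ± 0.14, adjusted p = 3.01e-07), CDKN2C, E2F7, E2F3 and CCND2. The call of E2F7 was lost in 6 of 8 fits without 1 library, and those of CDKN2C and CCND2 in 4 each.

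With LIN28A overexpressed, 4 members were higher than in DU145 among the wild types (all genes, 9.21%, or 6.67% higher and 2.55% lower). They were CCND3 (log2 fold change 1.07 ± 0.19, adjusted p = 1.41e-04), CDKN1C (log2 fold change 1.22 ± 0.31, adjusted p = 0.0061), E2F5 and CDC25B. The call of CDKN1C was lost in 7 of 8 fits without 1 library, with adjusted p up to 0.0399 without replicate 1 of DU145 wild type, and those of E2F5 and CDC25B were lost in 5 and 2 of 8. Without replicate 1 of LIN28A OE wild type, 28 were called, 4 higher and 24 lower (all genes, 19.9%). The 4 higher ones were the same genes, at log2 fold changes of 1.00 for CCND3, 1.51 for CDKN1C, 0.82 for E2F5 and 0.63 for CDC25B. In mutant 1, 3 were higher (all genes, 3.1%, or 1.93% higher and 1.16% lower), namely CDKN2B, E2F5 and CCND2. The call of CDKN2B was lost in 7 of 8 fits without 1 library and those of E2F5 and CCND2 in 4 each, and 0 were called without replicate 2 of DU145 mutant 1. In mutant 2, 13 were called, 3 higher and 10 lower (all genes, 19%, or 11.2% higher and 7.78% lower). The lower ones were led by AURKB (log2 fold change -1.89 ± 0.50, adjusted p = 0.00436) and CDC20 (log2 fold change -1.73 ± 0.46, adjusted p = 0.00439) and the higher ones by CDKN1C (log2 fold change 1.69 ± 0.35, adjusted p = 4.73e-04). The CDC20 call in LIN28A OE against DU145 mutant 2 was lost in 4 of 8 fits without 1 library, with adjusted p up to 0.0184 without replicate 4 of DU145 mutant 2. The AURKB call in LIN28A OE against DU145 mutant 2 was lost in 4 of 8 fits without 1 library, with adjusted p up to 0.0178 without replicate 2 of LIN28A OE mutant 2. The LIN28A OE and DU145 cultures differ in passage number, lentiviral integration and puromycin selection as well as in LIN28A. No group carries an empty vector, so these cannot be told apart.

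Between the parental lines, 22 of 46 members differed, 14 higher and 8 lower in IGROV1, against 60% of all genes (28.7% higher and 31.3% lower). The 6 largest differences were those of CDK6 (log2 fold change -8.22 ± 0.32, adjusted p = 2.35e-21), where IGROV1 wild type held 4 reads in all, CDKN2A (log2 fold change -5.14 ± 0.16, adjusted p = 3.69e-24), CCND2 (log2 fold change 4.85 ± 0.41, adjusted p = 2.16e-12), where DU145 wild type held 11 reads in all, CDKN2B (log2 fold change -3.79 ± 0.22, adjusted p = 6.30e-17), WEE1 (log2 fold change 2.19 ± 0.17, adjusted p = 2.69e-13) and E2F2 (log2 fold change 1.96 ± 0.40, adjusted p = 5.54e-05). The pair of genes at the INK4 locus on chromosome 9 was thus lower in IGROV1 and CCND1 higher (log2 fold change 1.49 ± 0.21, adjusted p = 1.68e-07). The lines also differ in culture medium.

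The effect of the mutations, taken as the mean of both clones against wild type, differed between IGROV1 and DU145 for 11 members, 5 higher and 6 lower in IGROV1, against 24.2% of all genes (11.3% higher and 12.8% lower). CDKN1C (log2 fold change 1.89 ± 0.40, adjusted p = 2.84e-04), CDKN2A (log2 fold change 1.16 ± 0.17, adjusted p = 1.08e-06), CCND1 (log2 fold change 1.14 ± 0.25, adjusted p = 6.00e-04), CDKN1B (log2 fold change 1.10 ± 0.15, adjusted p = 8.28e-07) and E2F5 were more positive in IGROV1. CCND3 (log2 fold change -1.23 ± 0.23, adjusted p = 8.06e-05), WEE1, E2F3, PCNA, MCM2 and CCND2 were more negative. The call of PCNA was lost in 10 of 24 fits without 1 library and that of MCM2 in 6. The value for CCND2 (log2 fold change -3.47 ± 1.03, adjusted p = 0.00856) uses the 2 reads of DU145 mutant 2, was lost in 14 of 24 fits without 1 library, with adjusted p up to 0.0716 without replicate 1 of DU145 mutant 2, and did not pass without the 5 libraries low in long genes (adjusted p = 0.0998). Between LIN28A OE DU145 and DU145 the effect differed for 0 members by edgeR and 0 by DESeq2, with 4 at an unadjusted p under 0.05, against 0.489% of all genes, and for 6 without replicate 1 of LIN28A OE wild type (all genes, 1.23%).

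Genes of the cycle outside the list were counted in the same way. Of 26 further G1/S genes, 4 were higher in DU145 mutant 1, 1 in DU145 mutant 2 (GINS3, a helicase subunit), 6 in LIN28A OE mutant 1 and 0 in LIN28A OE mutant 2, while 2 were lower in IGROV1 mutant 1 and 0 were called in IGROV1 mutant 2. Of 28 further G2/M genes, 1 was higher in LIN28A OE mutant 1 and 1 lower in IGROV1 mutant 1, with 0 in the other 4 mutant groups. Of 25 further regulators, 2 were lower in DU145 mutant 1, 4 higher and 4 lower in DU145 mutant 2, 2 higher and 2 lower in LIN28A OE mutant 1, 1 lower in LIN28A OE mutant 2, 2 higher and 4 lower in IGROV1 mutant 1 and 2 higher and 6 lower in IGROV1 mutant 2. In these 6 comparisons no more than 23.1% of the further G1/S genes and 3.57% of the further G2/M genes were called, against 20.5% to 31.1% of all genes. The further regulators were called at 32% in DU145 mutant 2, where 20.5% of all genes were, and at 32% in IGROV1 mutant 2, where 30.1% were. Their share was lower than that of all genes in the other 4 mutant groups. It was 8% in DU145 mutant 1 (all genes, 21.8%) and 16% in LIN28A OE mutant 1 (all genes, 25.2%). It was 4% in LIN28A OE mutant 2 (all genes, 20.6%) and 24% in IGROV1 mutant 1 (all genes, 31.1%). Between LIN28A OE and DU145 mutant 2, 9 of the 28 further G2/M genes were called, all lower (32.1%, against 19% of all genes). SKP2, the ubiquitin ligase subunit that marks CDKN1B for destruction, had 141, 163, 168 and 156.7 CPM in IGROV1 wild type. Mutant 1 had 64.2, 77.2, 63.8 and 40.1 CPM and mutant 2 had 76.4, 73.4, 64.9 and 46.5 CPM, and SKP2 fell in both (log2 fold change -1.31 ± 0.23, adjusted p = 1.49e-05 and log2 fold change -1.30 ± 0.22, adjusted p = 1.58e-05). FBXW7, the subunit that marks cyclin E, fell as well (log2 fold change -0.69 ± 0.13, adjusted p = 3.90e-05 and log2 fold change -0.44 ± 0.12, adjusted p = 0.00445).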

How the data were processed

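The mRNA data are 36 poly(A)-selected libraries made with a directional kit. Per the labels and the study's methods, the authors trimmed the reads with Trimmomatic 0.39, removed ribosomal reads, aligned them to hg38 with HISAT2 2.1.0 and deposited raw counts per gene from HTSeq. The HTSeq version, its strand setting and the annotation were not given in the sources used here, so reads of overlapping genes may be shared or lost. The 36 small RNA libraries of the series were not used.

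The deposited counts were scaled here to the gene reads of each library (CPM), and the rows of the count files that name no gene were left out. All 36 libraries entered 1 fit of 9 groups with edgeR 4.0.16 (R 4.3.3): filterByExpr, TMM normalisation and the quasi-likelihood test, with Benjamini-Hochberg adjustment over all 15556 genes tested and calls at a false discovery rate under 0.01. The study itself used DESeq2, which was tried as an alternative (version 1.42.0). Log2 fold changes are given with their standard error. The fit was tested on simulated counts first. Lengths and positions come from GENCODE v44 and promoters from RefSeq. Deviations within groups use log2 CPM with a prior count of 2. With 7195437 to 25054688 gene reads per library, genes with a few reads have wide errors. The p-values cover only the spread between libraries within groups, estimated for each gene over all 9 groups together. The members, lists and tests were chosen with earlier results of these data known. The 20 replication, G2/M and mitotic members were summed as a block after their values were seen. All members were accounted for by role, and values in every library were given for the G1 regulators, inhibitors, some E2F factors, MKI67, CCNB1 and CDK1, and for members with the largest changes in both clones of a background. CDK7, WEE1 and SKP2 are shown as well, and CDK7 and WEE1 were chosen after their values were seen.

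The titles number the replicates 1 to 4 in every group. Same-numbered libraries deviated together in every pair (r above 0.1) in LIN28A OE mutant 2 against wild type (r = 0.167 to 0.507) and in DU145 mutant 2 against mutant 1 (r = 0.116 to 0.533), which counts as pairing for these 2 comparisons, and not in the others.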

Additional observations from a re-analysis of the deposited data

Results flagged for a closer look

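In 12 cases the highest or lowest library stood apart from the other 3 of its group, by a gap that took most of the range of the group (Dixon's rule), among 189 groups of 4 libraries looked at for 21 genes. Chance flags about 1 in 20 groups. Of the 12 cases, 7 fell in replicate 1 of LIN28A OE wild type. There MKI67 had 834 CPM (the other 3, 70.1 to 125), CCNB1 403 CPM (30.3 to 57.2), CDK1 148 CPM (16.7 to 30.9), CDKN2C 63.8 CPM (21.1 to 27.7), E2F1 61.2 CPM (14.3 to 18.6), CDC25A 22.03 CPM (3.31 to 5.64) and E2F2 20.8 CPM (3.75 to 5.35). Replicate 1 of LIN28A OE mutant 2 had 14.4 CPM of CDC25A (11.7 to 11.8 in the others). In DU145, replicate 1 of wild type had 423 CPM of CDKN2A (311 to 329.9), replicate 4 of mutant 2 had 25.7 CPM of CDKN2B (35.6 to 37.0), and replicate 1 of mutant 2 had 16.02 CPM of E2F2 (23.8 to 24.7). Replicate 4 of IGROV1 mutant 2, a library low in long genes, had 330.2 CPM of MKI67 (675 to 741 in the others).

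The effect of the mutations differed between IGROV1 and DU145 by the interaction test of edgeR, and the 6 members with the largest differences were CCND2 (-3.47 on the log2 scale, IGROV1 minus DU145), CDKN1C (1.89), CCND3 (-1.23), PCNA (-1.18), CDKN2A (1.16) and CCND1 (1.14). The values of CCND2 and PCNA lost their call in some fits without 1 library. The causes of these differences were not tested.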

How the results depend on the processing

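No called log2 fold change of a member turned its sign under any alternative. Of the 132 member calls, 132 remained called by DESeq2, 131 with DESeq2's size factors, 126 without the filter on low counts and 73 in every fit without 1 library. Of the 99 calls that could be refitted with only the libraries of the cell line, 68 remained and 31 were lost. Of the 94 that touch the 5 libraries low in long genes, 76 remained and 18 were lost without these libraries. At a false discovery rate under 0.05 the members called rose to 12 in DU145 mutant 1, 11 in DU145 mutant 2, 26 in LIN28A OE mutant 1, 9 between the IGROV1 clones and 29 between LIN28A OE and DU145 mutant 2. In the same order 33.3%, 31.1%, 36.8%, 27.8% and 34.5% of all genes were called at that threshold. In fits of only the libraries of the cell line the members called were 2 in DU145 mutant 1, 10 in LIN28A OE mutant 1, 13 in IGROV1 mutant 2, 13 between the IGROV1 clones, and 2, 1 and 6 between LIN28A OE and DU145 in wild type, mutant 1 and mutant 2. In the same order these fits called 26%, 28.2%, 27.7%, 16.6%, 10.3%, 3.52% and 20% of all genes. The cell-line fit was not run for comparisons between the lines, where it cannot be made. Without the 5 libraries low in long genes, an alternative chosen after seeing the data, 2 members were called between the LIN28A OE and DU145 wild types (all genes, 9.37%). The cause of these shifts was not tested.

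With 1 library left out, members called ranged from 2 to 9 in DU145 mutant 1, 4 to 9 in DU145 mutant 2, 7 to 35 in LIN28A OE mutant 1, 3 to 18 in LIN28A OE mutant 2, 6 to 7 in IGROV1 mutant 1 and 7 to 8 in IGROV1 mutant 2. They ranged from 7 to 9, 11 to 22 and 2 to 6 between the clones of DU145, LIN28A OE and IGROV1, and from 1 to 28, 0 to 3 and 3 to 14 between LIN28A OE and DU145 in wild type, mutant 1 and mutant 2. They ranged from 18 to 22 between the wild-type lines, 8 to 12 for the mutant effect of IGROV1 against DU145 and 0 to 6 for that of LIN28A OE against DU145. The lowest counts in both DU145 mutants came without replicate 2 of DU145 wild type, and the highest in the LIN28A OE comparisons with wild type without replicate 1 of LIN28A OE wild type. Without the former library 16.5% and 17% of all genes were called in DU145 mutants 1 and 2. Without the latter 29.9% and 20.3% were called in LIN28A OE mutants 1 and 2.

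With the replicate number as a block in the fit of all libraries, 9, 8, 22, 5, 8 and 8 members were called in the 6 mutant groups in the order above, all within 1.5 times. In the same order that fit called 24.3%, 22.6%, 27.6%, 22.7%, 33.7% and 32.4% of all genes. In fits of only the paired groups, chosen after seeing the data, DU145 mutant 2 against mutant 1 gave 10 calls without and 20 with the replicate block (all genes, 34.5% and 56.1%). LIN28A OE mutant 2 against wild type gave 2 without and 4 with it (all genes, 17.5% and 21.7%).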
